A study of Mus musculus with 9 samples.

Results

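The 10 genes described here are CC chemokine ligands that myeloid cells can make: Ccl2, Ccl3, Ccl4, Ccl6, Ccl7, Ccl9, Ccl12, Ccl17, Ccl22 and Ccl24. They were taken by symbol from the gene counts of sorted mouse monocytes, and all 10 of them were listed among 23238 gene symbols. The study asked what monocytes express when they enter a lesion modelled on neuromyelitis optica (NMO), an autoimmune disease of the central nervous system in which antibodies bind the water channel aquaporin-4 on astrocytes. Blood_Normal was monocytes from the blood of untreated C57BL/6N mice, Blood_NMO was monocytes from the blood of mice given an injection of patient antibody (NMO-IgG) with human complement into the striatum, and Brain_NMO was monocytes from the brain of such mice. All mice were female wild types, all cells were taken on day 1, and each group had 3 libraries, each from a pool of 5 mice. The model has limits as a comparison: the antibody and complement are human and are injected into the brain, and no monocytes of normal brain or of mice injected without antibody were analysed here. Blood cells were first separated on a density gradient and brain cells were isolated from tissue, so the source of the cells and the way they were prepared cannot be told apart.

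Chemokines are small secreted proteins that draw leukocytes along a gradient by binding G protein-coupled receptors on their surface. In the CC class, the first cysteines of the mature protein stand side by side. CCL2, CCL7 and CCL12 bind CCR2, the receptor by which inflammatory monocytes leave the bone marrow and enter inflamed tissue, while CCL3 and CCL4 are the macrophage inflammatory proteins, of which CCL3 binds CCR1. CCL6 and CCL9 are rodent ligands of CCR1 that many myeloid cells make without stimulation, CCL17 and CCL22 are CCR4 ligands known from dendritic cells and macrophages, and CCL24 is a CCR3 ligand known for drawing eosinophils.

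The coding stretches around the adjacent cysteine codons show the feature that defines the class and how far the genes differ around it, which bears on whether their reads can be told apart. Each stretch has 42 bases of the reference transcript (GENCODE M21, GRCm38), 5′ to 3′, with the codon pair in capitals. Ccl24 holds 2 such pairs. The class is defined on the mature protein, whose start was not mapped here, so not both pairs need be that feature.
Ccl2, codons 34 and 35 of 148: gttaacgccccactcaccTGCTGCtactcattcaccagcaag
Ccl7, codons 33 and 34 of 97: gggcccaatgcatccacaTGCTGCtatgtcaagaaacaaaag
Ccl12, codons 33 and 34 of 104: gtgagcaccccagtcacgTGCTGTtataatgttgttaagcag
Ccl3, codons 34 and 35 of 92: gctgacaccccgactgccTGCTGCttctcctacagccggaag
Ccl4, codons 34 and 35 of 92: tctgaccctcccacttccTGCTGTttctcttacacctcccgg
Ccl6, codons 50 and 51 of 116: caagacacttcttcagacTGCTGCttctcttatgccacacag
Ccl9, codons 57 and 58 of 122: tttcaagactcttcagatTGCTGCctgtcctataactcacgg
Ccl17, codons 43 and 44 of 103: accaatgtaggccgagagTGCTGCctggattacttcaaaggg
Ccl22, codons 36 and 37 of 92: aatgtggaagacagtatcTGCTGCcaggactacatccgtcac
Ccl24, codons 19 and 20 of 119: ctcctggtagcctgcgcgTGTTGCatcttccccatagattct
Ccl24, codons 33 and 34 of 119: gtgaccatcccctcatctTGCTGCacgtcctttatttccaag
Some of these stretches are alike at many positions, but identical runs between the transcripts were short. The longest run of bases common to any pair of these transcripts had 25 bases, between Ccl6 and Ccl9, followed by 23 between Ccl2 and Ccl7 and 17 between Ccl2 and Ccl12. For none of the 10 transcripts did a stretch as long as a read (75 bases) occur in a transcript of another gene, and this bears on the counts because reads with multiple alignments were counted. Shorter runs of 31 bases were shared with other genes by Ccl6 (18 of them), Ccl24 (1) and Ccl9 (113, with transcripts of 1049 other genes).

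The genes lie in a few clusters. On chromosome 11 of GRCm38, Ccl2 (82035571-82037453), Ccl7 (82045712-82047525) and Ccl12 (82101845-82103400) follow each other on the plus strand, with gaps of 8258 and 54319 bases. Another group on chromosome 11 begins 1469518 bases further on with Ccl9 (83572919-83578636) and Ccl6 (83587882-83593087) on the minus strand, followed by Ccl3 (83647844-83649355, minus strand) and Ccl4 (83662584-83664683, plus strand). Ccl22 (94745590-94751699) and Ccl17 (94810453-94812036) lie on the plus strand of chromosome 8, 58753 bases apart, and Ccl24 (135569937-135573049) lies on the minus strand of chromosome 5. Of these genes, 8 overlap no other annotated gene. Ccl6 overlaps the opposite-strand transcript E230016K23Rik, which had 0 to 84 counts per library, and Ccl2 overlaps the opposite-strand gene Gm17268, which was not analysed here. Whether counting used the strand is not stated, so reads of opposite strands there cannot be told apart.

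The libraries held 7582571 to 10416076 counts over the symbols kept, of which the ribosomal entry Rn45s took 28.4% to 43.6%. Levels below are CPM, read counts scaled to a common library size with TMM factors, and 3 counts, the floor used here for a count of 0, correspond to 0.273 to 0.432 CPM. Genes with at least 1 count numbered 4567 in Blood_NMO replicate 3 and 6473 to 11556 in the other libraries. That library differed from the other Blood_NMO libraries by 3.46 and 3.50 on log2(CPM + 1) (root mean square over genes), against 1.40 between those other libraries, so counts below are also given without it. Of all symbols, 10107 had enough counts for the test, and 7 of the 10 ligands were among them: Ccl2, Ccl3, Ccl4, Ccl6, Ccl7, Ccl9 and Ccl22. Ccl12, Ccl17 and Ccl24 did not pass the filter and are given by their values. Adjusted p-values come from the quasi-likelihood test of edgeR across these 10107 genes, and fold changes are on the log2 scale with their standard errors (SE).

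Brain_NMO monocytes held more of the ligands than blood monocytes. Above the floor were 10, 9 and 8 of the 10 ligands in Brain_NMO replicates 1, 2 and 3, against 5 in each Blood_Normal library and 6, 6 and 3 in Blood_NMO. By comparison, genes with at least 1 count numbered 9875, 6473 and 8403 in Brain_NMO and 10669, 9541 and 7495 in Blood_Normal. In Blood_NMO they numbered 11556, 10158 and 4567. Summed over the 10 genes, the level was 3411, 2676 and 2350 CPM in Brain_NMO, 1920, 1544 and 1111 CPM in Blood_Normal and 1737, 1407 and 309 CPM in Blood_NMO. Each Brain_NMO library thus lay above all 6 blood libraries, as it did for 3.57% of single genes tested. The share of gene sets of this size that do so was not determined, so these counts and sums are a description. In bulk libraries like these, more cells that express a gene and more RNA of it per cell cannot be told apart.

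**Figure D1:**
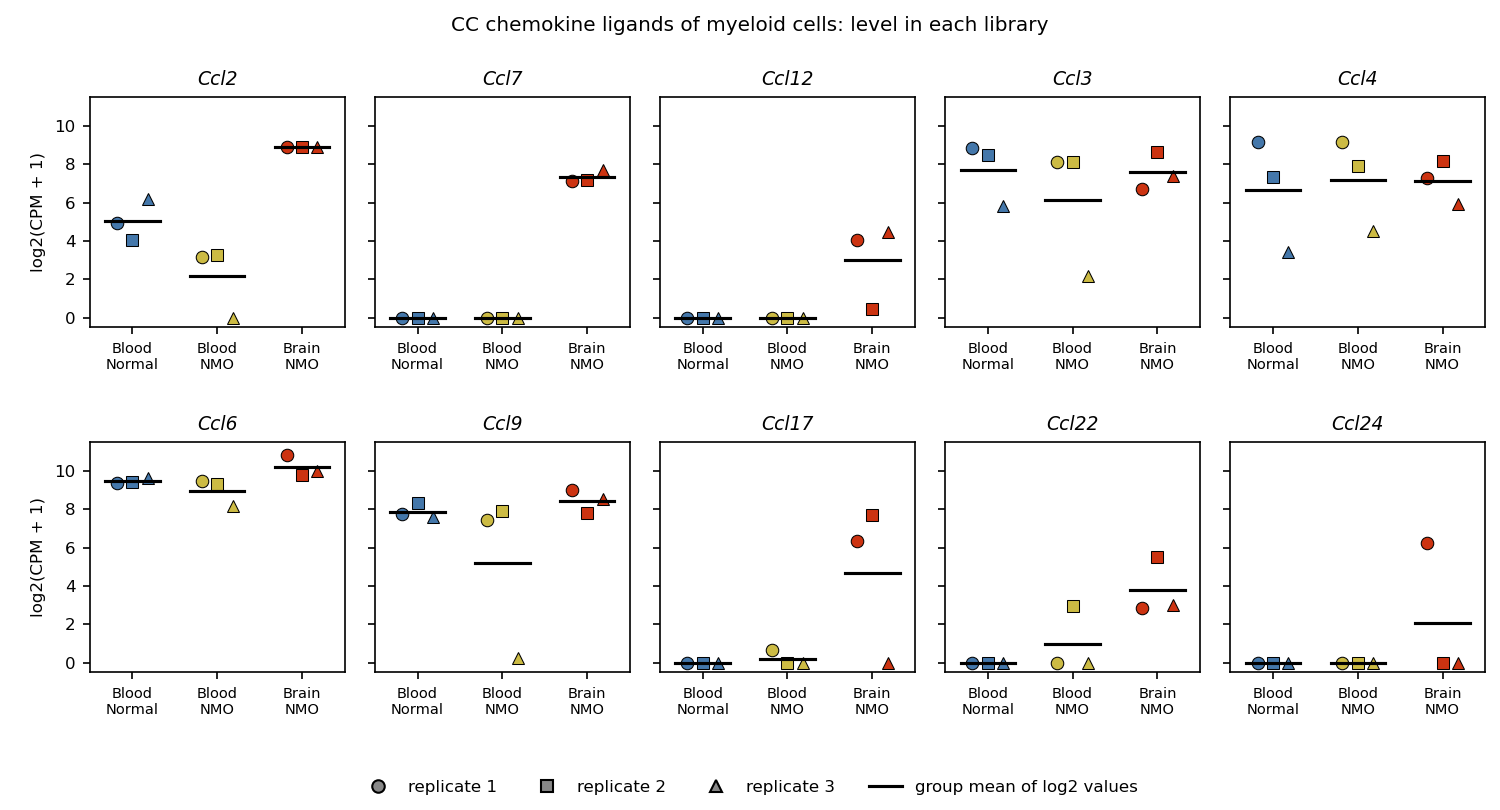
Level of each of the 10 ligands in each library, as log2(CPM + 1), by group; each point is 1 library (a pool of 5 mice) and the line is the mean of the 3 log2 values. Ccl2 and Ccl7 sit in a narrow band in Brain_NMO above every blood library, Ccl3 and Ccl4 overlap between all groups, and Ccl17 and Ccl24 are at 0 in some Brain_NMO libraries.

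Against Blood_NMO, the comparison of brain with blood within the model, 1 of the 7 tested ligands rose at an adjusted p under 0.05 (Ccl7), where 0.0198% of all tested genes were called higher. At the study's own threshold, an unadjusted p under 0.05 with a fold change of 1.2, there were 3 (Ccl2, Ccl6 and Ccl7), where 1.48% of all tested genes passed in that direction. The same 3 ligands were higher in every Brain_NMO library than in every Blood_NMO library, which held for 6.3% of tested genes. Against Blood_Normal, Ccl7 alone rose at the adjusted threshold (0.0297% of all genes called higher) and Ccl2, Ccl7 and Ccl22 passed the unadjusted threshold (1.75%). Against both blood groups together, Ccl2 and Ccl7 rose at the adjusted threshold (0.139%), Ccl2, Ccl6, Ccl7 and Ccl22 passed the unadjusted threshold (2.62%), and Ccl2, Ccl6 and Ccl7 did not overlap any blood library (3.57%). The median log2 fold change of the 7 ligands was 1.44 against Blood_NMO, 0.83 against Blood_Normal and 1.03 against both, while over all genes tested it was 0.05, -0.12 and 0.01. Ccl7 and Ccl22 passed the filter on low counts through their Brain_NMO libraries, the group in which they are high, so these counts and medians describe the ligands that were tested and are not support for a difference over the family. The comparisons share the Brain_NMO libraries and are not independent. Without Blood_NMO replicate 3 the filter let more genes through, 9 of the ligands among 11240 genes. In that fit 2 ligands were called at the adjusted threshold in each of the 3 comparisons, where 36, 62 and 90 of all genes were called in either direction, and 4, 6 and 6 ligands passed the unadjusted threshold, where 702, 919 and 1019 genes did.

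Ccl2 encodes the main CCR2 ligand that recruits monocytes. Its level was 485, 474 and 483 CPM in Brain_NMO, with a coefficient of variation of 1.28% over the 3 pools. In Blood_Normal it was 29.3, 15.9 and 71.6 CPM, and in Blood_NMO 8.12, 8.60 and 0 CPM. The 3 groups did not overlap: all Brain_NMO libraries were highest and all Blood_NMO libraries lowest. Mean levels were 481 ± 6.15 CPM (SD, n = 3) in Brain_NMO, 38.9 ± 29.1 CPM in Blood_Normal and 5.57 ± 4.83 CPM in Blood_NMO, so the Brain_NMO mean was 12.3 times the Blood_Normal mean and 86.2 times the Blood_NMO mean. The log2 fold change against both blood groups was 5.03 (SE 0.95, edgeR adjusted p = 0.0347). Against Blood_NMO alone it was 6.43 (SE 1.35, 95% interval 3.53 to 9.33, edgeR adjusted p = 0.0848), and against Blood_Normal 3.62 (SE 1.18, edgeR adjusted p = 0.573), neither of which passed.

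Single libraries moved these calls for Ccl2. The call against both blood groups was lost without Blood_Normal replicate 3 (edgeR adjusted p = 0.0728) or without Brain_NMO replicate 1 (0.0828), replicate 2 (0.0840) or replicate 3 (0.0722). Against Blood_NMO, Ccl2 passed without Blood_NMO replicate 3, where it had no count (edgeR adjusted p = 0.00494), and without Blood_Normal replicate 2 (0.0368). It passed against Blood_Normal without Blood_NMO replicate 3 as well (0.00990). The log2 fold change kept its sign throughout, at 5.85 to 6.91 against Blood_NMO and 3.25 to 4.42 against Blood_Normal.

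Ccl7, the neighbour of Ccl2 on chromosome 11 and also a CCR2 ligand, was found in brain libraries alone. It had 1249, 1502 and 2106 counts in Brain_NMO replicates 1, 2 and 3, which is 141, 143 and 210 CPM, and 0 counts in all 6 blood libraries. The Brain_NMO mean of 165 ± 39.0 CPM (SD, n = 3) was at least 484-fold higher than Blood_NMO and at least 468-fold higher than Blood_Normal, with a floor of 3 counts per blood library. The edgeR adjusted p was 0.0298 against Blood_NMO, 0.0288 against Blood_Normal and 0.00393 against both. Ccl7 passed the filter on low counts through its Brain_NMO libraries, the group in which it is high. These p-values, and those below with libraries left out, thus describe Ccl7 and are not independent support for the difference. With both blood groups together, Ccl7 stayed past the threshold when any single library was left out (adjusted p = 0.00138 to 0.0326). Against Blood_NMO alone the call was lost without Blood_NMO replicate 1 (0.0583) or 2 (0.0580) and without Brain_NMO replicate 1 (0.0936), 2 (0.0671) or 3 (0.152). Against Blood_Normal it was lost without Blood_Normal replicate 1 (0.0564), 2 (0.0553) or 3 (0.103) and without Brain_NMO replicate 1 (0.0930), 2 (0.0642) or 3 (0.162).

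The Brain_NMO libraries held 29.1, 30.2 and 43.4 counts of Ccl7 per 100 counts of Ccl2. In Blood_Normal, where Ccl2 had 204, 150 and 701 counts, no count of Ccl7 was found. A read of these 3ʹ libraries marks a transcript end and no value is divided by length, so such ratios are given to compare libraries and not the amounts of different transcripts.

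Ccl12 encodes the third CCR2 ligand and lies next to Ccl7. Brain_NMO replicates 1, 2 and 3 held 139, 4 and 212 counts (15.7, 0.380 and 21.1 CPM), and no blood library held any. The spread among the brain libraries was wide: replicate 2 was 1 count above the floor although its Ccl2 and Ccl7 levels were like those of the other brain libraries. The mean of 12.4 ± 10.7 CPM (SD, n = 3) was at least 36.5-fold higher than Blood_NMO and at least 35.2-fold higher than Blood_Normal. Without Brain_NMO replicate 3 these bounds were 23.7-fold and 22.9-fold. In a fit with no filter, over 14442 genes, the edgeR adjusted p was 0.671 against Blood_NMO, 0.680 against Blood_Normal and 0.402 against both, so the test did not call it.

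The CCR2 ligands took up a larger part of the ligand counts in brain. Ccl2, Ccl7 and Ccl12 made up 18.8%, 23.05% and 30.4% of the counts of the 10 genes in Brain_NMO, 1.53%, 1.03% and 6.45% in Blood_Normal and 0.468%, 0.611% and 0% in Blood_NMO. These shares did not overlap between Brain_NMO and either blood group. Summed, the 3 genes reached 642, 617 and 714 CPM in Brain_NMO and at most 71.6 CPM in a blood library.

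**Figure D2:**
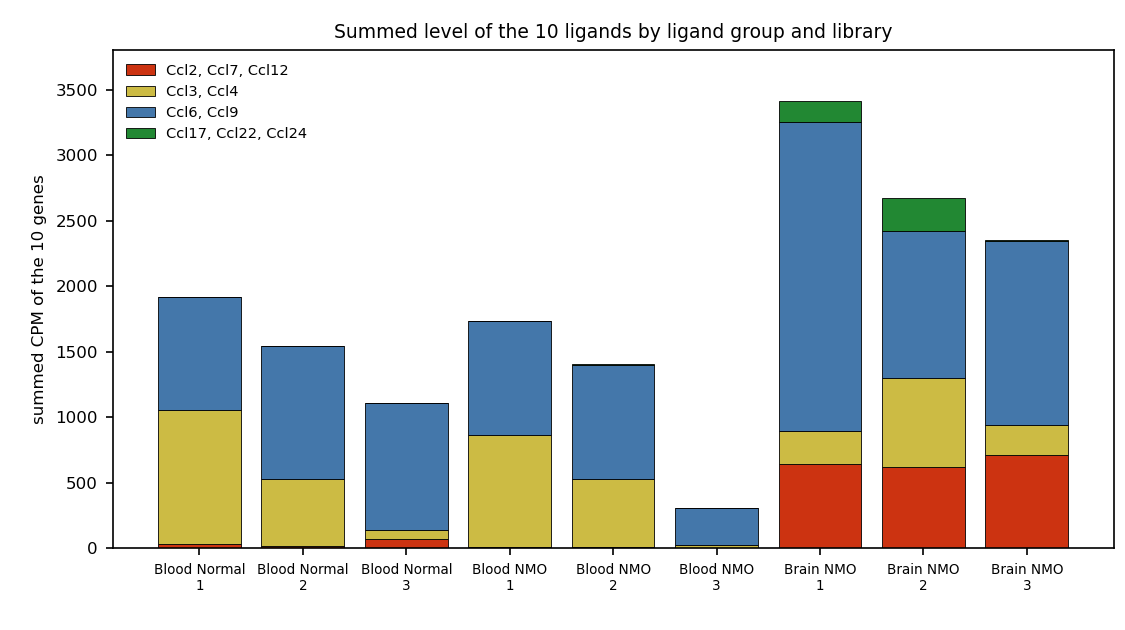
Summed CPM of the 10 ligands in each library, stacked by ligand group (the CCR2 ligands Ccl2, Ccl7 and Ccl12, then Ccl3 and Ccl4, then the CCR1 ligands Ccl6 and Ccl9, then Ccl17, Ccl22 and Ccl24). The CCR2 ligands reach 617 to 714 CPM in the 3 Brain_NMO libraries and 0 to 71.6 CPM in blood, and Blood_NMO replicate 3 has the lowest total.

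Ccl6, a CCR1 ligand, was well above the floor in every library. It was at 1843, 899 and 1039 CPM in Brain_NMO, 652, 694 and 783 CPM in Blood_Normal and 703, 635 and 283 CPM in Blood_NMO. Every Brain_NMO library lay above every blood library, although the gap between Brain_NMO replicate 2 and Blood_Normal replicate 3 was small beside the spread within Brain_NMO. The Brain_NMO mean was 1260 ± 509 CPM (SD, n = 3), 2.33 times the Blood_NMO mean and 1.78 times the Blood_Normal mean. The log2 fold change was 1.22 against Blood_NMO (SE 0.40, 95% interval 0.37 to 2.08, edgeR adjusted p = 0.625), 0.83 against Blood_Normal (SE 0.40, edgeR adjusted p = 0.708) and 1.03 against both (SE 0.33, edgeR adjusted p = 0.405). After adjustment none of these passed. Without Brain_NMO replicate 1, the highest library, the difference from Blood_NMO was 0.84 (edgeR adjusted p = 0.675).

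Ccl9, which lies beside Ccl6 and acts on the same receptor, did not separate the groups. It was at 511, 227 and 365 CPM in Brain_NMO, 213, 319 and 192 CPM in Blood_Normal, and 170, 237 and 0.182 CPM in Blood_NMO, where replicate 3 held 2 counts. All 3 groups overlapped. The log2 fold change was 1.44 against Blood_NMO (SE 1.17, 95% interval -1.08 to 3.95, edgeR adjusted p = 1) and 0.61 against Blood_Normal (SE 1.15, edgeR adjusted p = 1). Without Blood_NMO replicate 3 the first of these was 0.86 (edgeR adjusted p = 0.677). Counts of Ccl9 per 100 counts of Ccl6 were 27.7, 25.2 and 35.1 in Brain_NMO, 32.7, 46.0 and 24.5 in Blood_Normal and 24.2, 37.4 and 0.0642 in Blood_NMO. Outside Blood_NMO replicate 3, this ratio overlapped between brain and blood.

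Promoters were searched to describe members that lie together, and 6 of the 10 genes matched the RefSeq promoter table of GRCm38.p6: Ccl3, Ccl6, Ccl9, Ccl12, Ccl17 and Ccl22. A difference in pattern between the neighbours Ccl6 and Ccl9 was not tested. Their log2 fold changes against Blood_NMO were 1.22 and 1.44. The 100 bases before the start are shown for Ccl12, found in brain alone, and for the neighbours Ccl6 and Ccl9, 5′ to 3′ on the gene's strand. Capitals mark matches to the motifs searched.
Ccl12, chr11:82101745-82101844, plus strand: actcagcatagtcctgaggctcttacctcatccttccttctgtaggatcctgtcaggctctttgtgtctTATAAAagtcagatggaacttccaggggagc
Ccl6, chr11:83593088-83593187, minus strand: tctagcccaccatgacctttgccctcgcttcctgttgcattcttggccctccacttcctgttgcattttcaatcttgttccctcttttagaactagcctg
Ccl9, chr11:83578637-83578736, minus strand: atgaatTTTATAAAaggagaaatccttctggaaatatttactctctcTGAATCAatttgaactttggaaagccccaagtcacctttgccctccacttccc
Both strands of the 250 bases before each start were searched for TATAAA (the TATA box), for TGANTCA (the AP-1 site) and for GAGGAA (the core of the PU.1 site). Of 32851 promoters of that length, 12.4%, 6.75% and 23.3% held them, in that order. TATAAA was in 2 of the 6 windows: Ccl12 had it 31 to 26 bases before its start, and Ccl9 had it on both strands in an overlapping run 94 to 87 bases before and once more on the minus strand at 224 to 219. In Ccl9, TGANTCA (which reads alike on both strands) lay 53 to 47 bases before the start, and it was in no other window of the 6. GAGGAA was in 3 windows, of Ccl3, Ccl12 and Ccl17. No motif was found in the Ccl6 or Ccl22 window. A match of letters does not show that a factor binds.

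Ccl3 and Ccl4, the macrophage inflammatory protein genes, were present in every library and did not differ between groups beyond the spread. Ccl3 was at 103, 397 and 167 CPM in Brain_NMO, 459, 355 and 54.8 CPM in Blood_Normal and 276, 276 and 3.45 CPM in Blood_NMO. Ccl4 was at 152, 284 and 59.1 CPM in Brain_NMO, 566, 160 and 9.91 CPM in Blood_Normal and 580, 243 and 21.5 CPM in Blood_NMO. For both genes the lowest library of each blood group was replicate 3, and the Brain_NMO libraries lay inside the range of the blood libraries.

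Against Blood_NMO, the log2 fold change was 0.26 for Ccl3 (SE 1.06, 95% interval -2.01 to 2.53, edgeR adjusted p = 1) and -0.77 for Ccl4 (SE 1.13, 95% interval -3.19 to 1.65, edgeR adjusted p = 1). Against Blood_Normal it was -0.38 for Ccl3 and -0.57 for Ccl4 (edgeR adjusted p = 1 for both). These intervals reach beyond a 4-fold difference in at least 1 direction and do not show that the levels are alike. Without Blood_NMO replicate 3 the Ccl3 difference from Blood_NMO became -0.30 (edgeR adjusted p = 1).

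**Figure D3:**
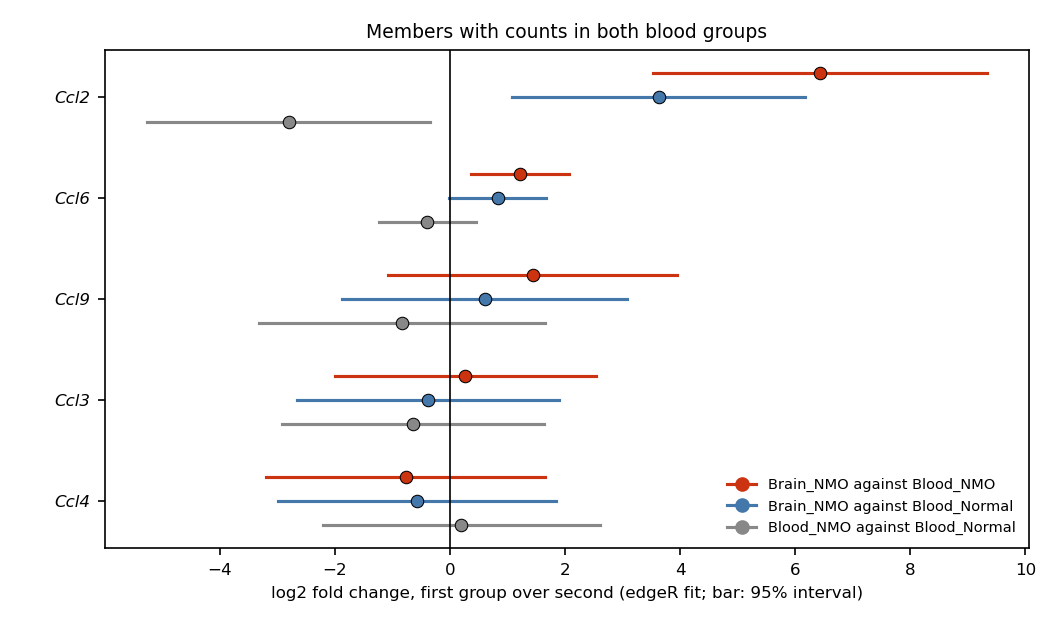
Log2 fold changes of the 5 ligands with counts in both blood groups, from the edgeR fit, for 3 pairs of groups; points are estimates and bars 95% intervals. The intervals of Ccl2 lie to the right of 0 for both comparisons with brain (6.43 and 3.62) and to the left for Blood_NMO against Blood_Normal (-2.81), while those of Ccl3, Ccl4 and Ccl9 span 0.

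The CCR4 ligands were near 0 in blood and uneven in brain. Ccl17 had 700, 2177 and 0 counts in Brain_NMO replicates 1, 2 and 3 (79.2, 207 and 0 CPM), 4 counts in Blood_NMO replicate 1 and none in the other blood libraries. Its mean of 95.4 CPM in Brain_NMO was at least 271-fold higher than Blood_Normal, but it came from 2 of 3 libraries, and without Brain_NMO replicate 2 the bound was 113-fold. In the fit with no filter, the edgeR adjusted p for Ccl17 was 0.0978 against Blood_NMO, 0.00806 against Blood_Normal and 6.99e-05 against both. That fit called 110, 115 and 181 of all 14442 genes in either direction in these comparisons. Nearly all counts of Ccl17 came from Brain_NMO, the group in which it is high. These p-values thus describe Ccl17 and are not independent support for the difference.

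Ccl22 was at 6.33, 45.4 and 6.96 CPM in Brain_NMO, from 56, 477 and 70 counts. In blood it was found in Blood_NMO replicate 2 alone, at 6.86 CPM (63 counts), a level between those of Brain_NMO replicates 1 and 3. Its Brain_NMO mean of 19.6 ± 22.4 CPM (SD, n = 3) was at least 55.6-fold higher than Blood_Normal, yet the difference did not pass after adjustment (edgeR adjusted p = 0.708). Against Blood_NMO the log2 fold change was 3.09 (SE 3.46, edgeR adjusted p = 1). Without Brain_NMO replicate 2, the highest library, it was 1.55, and the mean over the other brain libraries was at least 18.9-fold higher than Blood_Normal. Without Blood_NMO replicate 2, the fitted value was 10.50, which is no bound because that group is then at 0.

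Brain_NMO replicate 2 held the most of both CCR4 ligands. Dendritic cell markers, summed over 7 genes, were at 368 CPM in that library, 122.8 and 144 CPM in the other Brain_NMO libraries, 139 to 172 CPM in Blood_Normal and 9.64 to 150 CPM in Blood_NMO. Cd209a gave most of that sum in replicate 2, at 301 CPM, against 89.9 and 114 CPM in the other Brain_NMO libraries. Zbtb46 was at 27.4 CPM in replicate 2 and 0 in the others, while Flt3 was at 0.0951 CPM in replicate 2 and 23.7 and 28.4 CPM in the others, Xcr1 was at 1.02 CPM or less in all 3, and Ccr7 was at 0 in all 3. The part of these cells in the levels of Ccl17 and Ccl22 was not tested.

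Ccl24, the CCR3 ligand, was found in 1 of 9 libraries. Brain_NMO replicate 1 held 656 counts (74.2 CPM), and the other 8 libraries held none. In the fit with no filter the edgeR adjusted p was 0.671 against Blood_NMO and 0.134 against both blood groups, so it was not called. Of border-associated macrophage markers, which could come from the same tissue, replicate 1 held Mrc1 at 25.3 CPM and Cbr2 at 12.1 CPM with Lyve1 and Folr2 at 0, and replicate 2, with no Ccl24, held Mrc1 at 62.1 CPM, Cbr2 at 82.9 CPM and Lyve1 at 34.7 CPM. Summed over 7 genes that list was at 70.1 to 232 CPM in Brain_NMO, 108 to 428 CPM in Blood_Normal and 126 to 562 CPM in Blood_NMO, with Pf4, a gene also known from platelets, giving most of it in blood. Of the 5 tested, Pf4 had a lower estimate in Brain_NMO against both blood groups. The other 4 had a higher one, as did 5073 of all 10107 genes. Ms4a7 was at 25.8, 51.9 and 14.5 CPM in Brain_NMO and 6.96 CPM at most in blood. The part of such cells in Ccl24 was not tested.

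Between the blood groups, the comparison that asks whether the brain lesion was reflected in circulating monocytes, 0 of the 7 ligands was called by edgeR at an adjusted p under 0.05 (0% of all genes called lower), and none by DESeq2 or limma-voom. At the unadjusted threshold 1 ligand passed, Ccl2, which was lower in Blood_NMO (0.247% of all genes). It was also the 1 ligand whose Blood_NMO libraries all lay below the Blood_Normal libraries (4.45%). The log2 fold change of Ccl2 was -2.81 (SE 1.15, 95% interval -5.27 to -0.35, edgeR adjusted p = 1), a mean level 6.99 times as high in Blood_Normal. It remained below 0 without Blood_NMO replicate 3, at -2.21 (edgeR adjusted p = 1), and without Blood_Normal replicate 3, the highest blood library, it was -2.02 (edgeR adjusted p = 1). The other 4 ligands with counts in both blood groups overlapped, with log2 fold changes of -0.65 for Ccl3, 0.20 for Ccl4, -0.39 for Ccl6 and -0.83 for Ccl9. Ccl7 has no count in blood and Ccl22 has counts in 1 blood library, so no median over the ligands is given here. Over all genes tested the median was -0.16.

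Receptors for these ligands were read from a list of 15 CC and atypical chemokine receptors, of which 6 were tested and none was called after adjustment. Ccr2, the receptor for CCL2, CCL7 and CCL12, was at 1297, 786 and 1133 CPM in Brain_NMO, 267, 409 and 236 CPM in Blood_Normal and 691, 668 and 89.8 CPM in Blood_NMO. Every Brain_NMO library lay above every blood library, which held for 3.57% of all tested genes. The log2 fold change of Ccr2 was 1.48 against both blood groups (SE 0.47, edgeR adjusted p = 0.402) and 1.15 against Blood_NMO. As a group, the Brain_NMO libraries thus held more of the CCR2 ligands and more Ccr2 than the blood libraries. The order did not match within brain, where replicate 3 held the most of these ligands (714 CPM) and replicate 1 the most Ccr2. It did not match in blood either: Blood_Normal replicate 3 held the most of these ligands (71.6 CPM) and Blood_NMO replicate 1 the most Ccr2.

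Ccr1, which binds CCL3, CCL6 and CCL9, was at 166, 12.3 and 202 CPM in Brain_NMO and at 0 to 7.93 CPM in blood (log2 fold change 4.86 against both, SE 1.60, edgeR adjusted p = 0.442). The Brain_NMO libraries lay above all blood libraries, as for 3.57% of all tested genes, and Ccr1 did not pass after adjustment. Of the list, Ccr7, which binds none of these ligands, passed the unadjusted threshold as lower in Brain_NMO, where it was at 0 (edgeR adjusted p = 0.618 against both blood groups). The receptor of CCL17 and CCL22, Ccr4, had no count in any library, and Ccr3, the receptor of CCL24, was at 0 in all Brain_NMO libraries and at 5.32 CPM or less in blood.

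**Figure D4:**
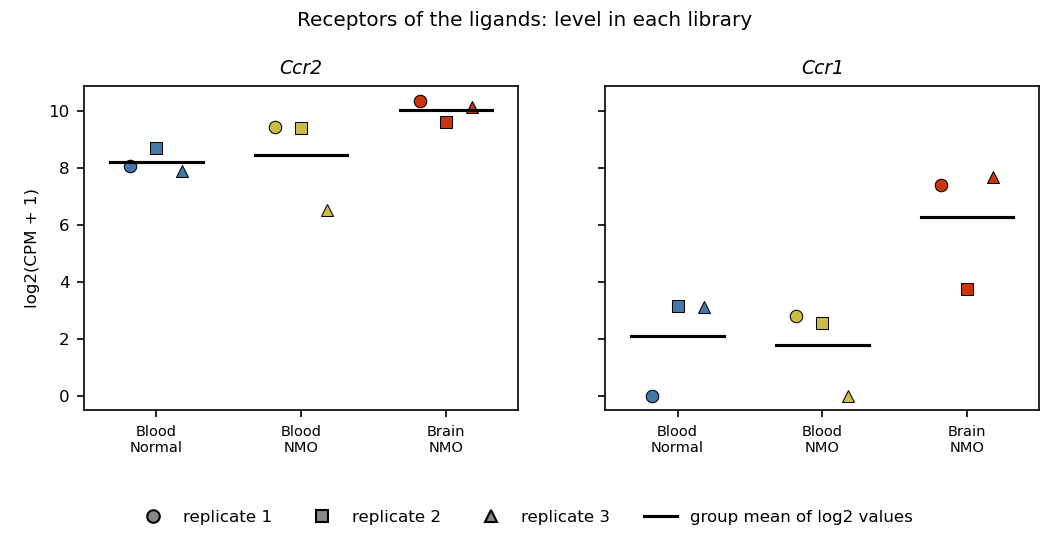
Level of Ccr2 and Ccr1 in each library, as log2(CPM + 1), by group; points are libraries and lines are means of the log2 values. For both receptors the 3 Brain_NMO libraries lie above the 6 blood libraries, as for 3.57% of all tested genes, and Blood_NMO replicate 3 is the lowest or among the lowest.

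Other CC chemokine ligands were read from a list of 14 further genes, of which 2 were tested and 1 was called. Ccl5, known from NK and T cells as well as myeloid cells, fell in Brain_NMO: it was at 21.3, 130 and 141 CPM there, 1939, 1191 and 1178 CPM in Blood_Normal and 1560, 1508 and 1397 CPM in Blood_NMO. The log2 fold change was -3.93 against Blood_NMO (SE 0.57, edgeR adjusted p = 0.0103) and -3.88 against Blood_Normal (SE 0.57, edgeR adjusted p = 0.0129), opposite in sign to those of Ccl2 and Ccl7. NK and T cell markers moved the same way: summed over 10 genes they were at 2012 to 2422 CPM in Blood_Normal, 2373 to 3197 CPM in Blood_NMO and 51.7 to 289 CPM in Brain_NMO, and 5 of 9 tested were lower in Brain_NMO than in Blood_NMO at the unadjusted threshold, 1 of them (Nkg7) at the adjusted one, while of all 10107 genes 388 and 23 were lower at these thresholds. Gzma, a granzyme gene of these cells, was at 1123 to 1811 CPM in blood, while Cd3e was at 0 in 7 of 9 libraries. The part of such cells in Ccl5, or in Ccl3 and Ccl4, which NK cells can also make, was not tested.

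Among 19 tested genes of chemokine receptor signalling, none was called after adjustment in any comparison. At the unadjusted threshold Rgs1, a regulator that dampens G protein signalling, was lower in Brain_NMO than in Blood_NMO (log2 fold change -1.63, SE 0.59, edgeR adjusted p = 0.802), at 54.1, 119 and 288 CPM against 696, 397 and 329 CPM. Against both blood groups Rac2 (-1.28) and Dock2 (-0.96), which act on the actin cytoskeleton in migrating leukocytes, also passed that threshold as lower (edgeR adjusted p = 0.618 for both).

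The label of the cells was read against markers. Monocyte markers, summed over 10 genes, were at 4422 to 7818 CPM in Brain_NMO, 5548 to 7262 CPM in Blood_Normal and 3725 to 6518 CPM in Blood_NMO, and all 10 were above the floor in each group. Ly6c2, of the marker used in the sort, was at 437, 59.4 and 199 CPM in Brain_NMO and 462 to 933 CPM in blood. Microglia markers were higher in Brain_NMO as a group: their sum over 12 genes was 1013, 1000 and 903 CPM there. It was 143 to 417 CPM in Blood_Normal and 0.0909 to 252 CPM in Blood_NMO. Within Brain_NMO, replicate 1 held the most Ccl2 and the highest sum, but replicate 3 held the most Ccl7 and the lowest sum. In Blood_Normal, replicate 3 held the most Ccl2 and the lowest sum. The largest part of the sum in each Brain_NMO library, and most of it in each blood library, was Cx3cr1, which monocytes also express. Cx3cr1 was at 544, 297 and 337 CPM in Brain_NMO, 112 to 322 CPM in Blood_Normal and 0.0909 to 202 CPM in Blood_NMO. All 9 microglia markers that were tested had a higher estimate in Brain_NMO than in Blood_NMO, 4 of them past the unadjusted threshold and none past the adjusted one, while of all 10107 genes 5193 had a higher estimate and 150 passed the unadjusted threshold as higher. Fcrls and Olfml3 had no count in blood and passed the filter on low counts through their Brain_NMO libraries, where they are high. These counts are thus a description and not support for a difference in microglia markers. Of the defining ones, Fcrls was at 52.7, 77.5 and 50.5 CPM in Brain_NMO and 0 in blood, Tmem119 was at 78.4, 0 and 21.0 CPM in Brain_NMO and 0 in blood, and P2ry12, by which the sort excluded cells, was at 9.95 to 69.7 CPM in Brain_NMO and 0 to 43.4 CPM in blood.

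Neutrophil markers, summed over 7 genes, were at 432, 1751 and 1104 CPM in Brain_NMO and 83.1 to 296 CPM in blood. S100a8 and S100a9, which monocytes also express, made up most of that sum in Brain_NMO replicates 2 and 3, Retnlg was at 0 in all 3 brain libraries, and Ngp, a granule gene of neutrophil precursors, was at 57.8, 245 and 102 CPM there against 27.5 CPM at most in blood. Camp, another granule gene, was at 85.0, 0 and 49.3 CPM in Brain_NMO and 0 to 24.6 CPM in blood. Genes of dissociation and immediate-early response, which isolation of cells can induce, summed to 12510, 6623 and 5562 CPM in Brain_NMO, 1621 to 8498 CPM in Blood_Normal and 1157 to 5632 CPM in Blood_NMO. The heat-shock gene Hspa1a was at 4112, 1051 and 566 CPM in Brain_NMO against 51.6 CPM at most in blood. Hspa1b was at 4239, 1051 and 380 CPM against 34.7 CPM at most. Against both blood groups Hspa1a was called higher (edgeR adjusted p = 0.0438), as were 0.139% of all tested genes, and Hspa1b was not (edgeR adjusted p = 0.0618). Of the 10 genes in this list, 7 had a higher estimate in Brain_NMO against both blood groups, as did 5073 of all 10107 genes. The 3 with a lower one were Fosb (log2 fold change -1.28), Junb (-0.56) and Ier2 (-0.45). Astrocyte markers were at 13.1 CPM or less in Brain_NMO. The part of microglia, neutrophils or dissociation in the levels of Ccl2, Ccl7 and the other ligands was not tested.

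**Figure D5:**
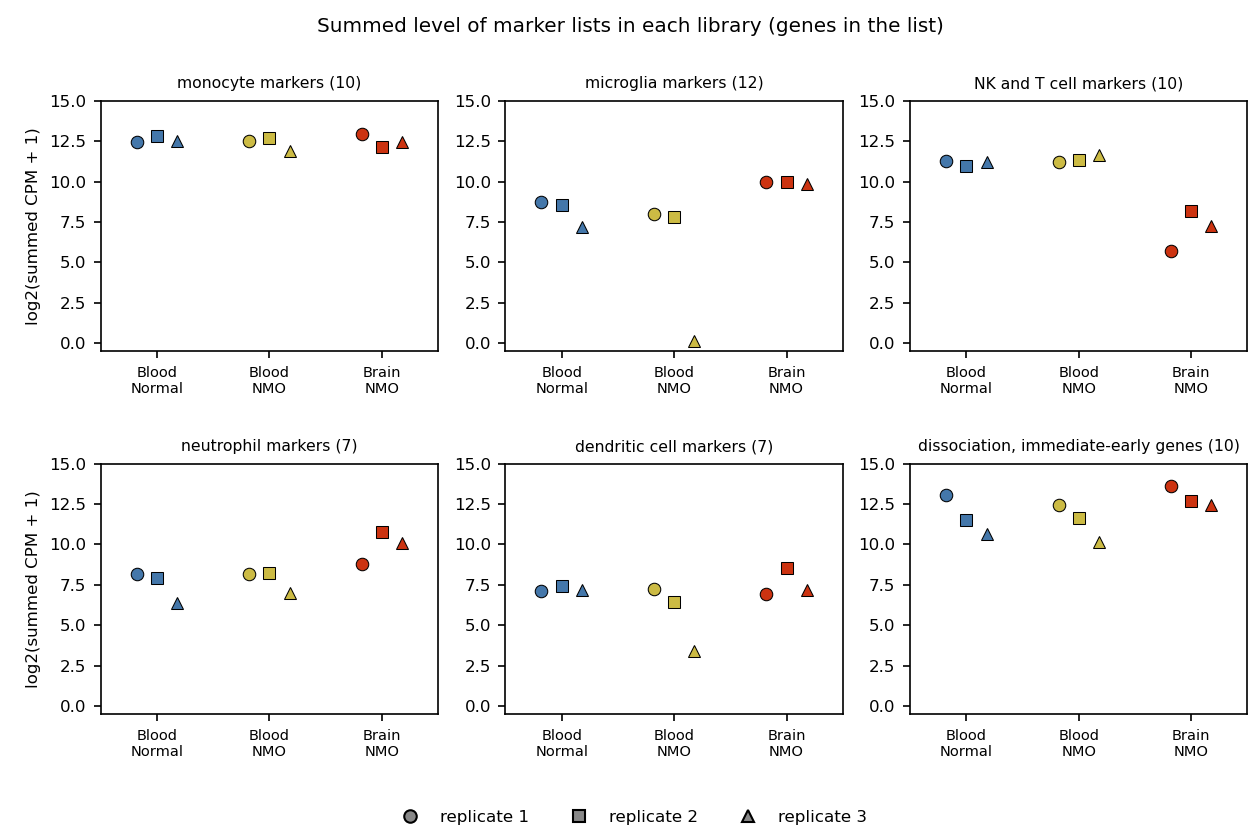
Summed level of 6 marker lists in each library, as log2(summed CPM + 1), by group; points are libraries and the number of genes is in brackets. Microglia markers are at 903 to 1013 CPM in Brain_NMO and NK and T cell markers at 51.7 to 289 CPM, against 2012 to 3197 CPM in blood, while monocyte markers overlap between the groups.

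As a description, the genes whose levels ran most like those of Ccl2 over the 9 libraries were Cstb (Pearson r = 0.971), Thbs1 (0.955), Il6st (0.954), Basp1 (0.942) and Eif2s2 (0.938), among 10106 other genes tested. For Ccl6 they were Adam8 (r = 0.945), Gnb2l1 (0.943), Rpl18 (0.940), Fcgr1 (0.938) and Ftl1 (0.936). All these values were taken on log2(CPM + 1), and the libraries fall into 3 groups, so a difference between brain and blood is enough to give a high r. Among the ligands themselves, r over the 9 libraries was 0.848 between Ccl2 and Ccl7, 0.882 between Ccl2 and Ccl6, 0.827 between Ccl6 and Ccl9, 0.763 between Ccl3 and Ccl4 and 0.739 between Ccl17 and Ccl22, and 0.0718 between Ccl2 and Ccl4.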

How the data were processed

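The data were 9 QuantSeq 3ʹ libraries of sorted monocytes (CD45+, CD11b+, P2ry12-, Ly6C+, Ly6G-), 3 per group, grouped by the sample labels. The authors aligned single-end reads of 75 bases with Bowtie2 (mm10 per the labels), counted them per gene with bedtools (reads that align once or several times alike), and deposited these raw read counts by gene symbol. Tool versions are not given in the sources used here. The study's later TMM and CPM scaling is not in the deposited counts. The microglia libraries of the study were not analysed here, nor was Ly6g, whose product was a sorting marker.

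From 23282 entries, the one with most counts was kept for each of 35 repeated symbols. All 9 libraries entered a single fit in edgeR 4.0.16 (R 4.3.3) with TMM factors, filterByExpr and the quasi-likelihood test, with Benjamini-Hochberg adjustment over 10107 genes. SE is the absolute log2 fold change divided by the square root of F. The study's methods give the 3 libraries of a group as separate pools, so p-values measure the spread between pools; whether blood and brain came from the same mice is not stated. A fold against a group at 0 uses a floor of 3 counts per library, which covers counting error only. The common dispersion was 2.87, so only large differences pass. Named were the 10 ligands, their receptors (apart from 1 that is not reported here), the other CC ligand, receptor and signalling genes past the unadjusted threshold in Brain_NMO against Blood_NMO or both blood groups, and the 5 genes most like Ccl2 and Ccl6 by Pearson r of log2(CPM + 1). Marker lists are given by counts and sums with some of their genes named. The ligands and gene lists were chosen with earlier results of these data known. Positions and transcripts are from GENCODE M21 (GRCm38) and promoters from RefSeq. The alternatives were RLE factors, library sizes alone, no filter, at least 10 counts in every library, repeated symbols summed, Rn45s left out, the compared groups alone, the replicate block, each library left out in turn, DESeq2 1.42.0 and limma-voom (limma 3.58.1). The fit was also run on simulated data, with dispersions below the 2.87 found here. That run thus does not show how the test performs at the spread of these data.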

Additional observations from a re-analysis of the deposited data

How the results depend on the processing

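The ligands called in Brain_NMO at the adjusted threshold numbered 1 against Blood_NMO, 1 against Blood_Normal and 2 against both blood groups. The first count was 2 with DESeq2, limma-voom, library sizes alone or no filter, and the second was 2 with DESeq2, limma-voom or only the groups compared and 3 with no filter. At least 10 counts in every library gave 0 in all 3 comparisons, since Ccl2 and Ccl7 are then no longer tested, and 1 ligand past the unadjusted threshold in each comparison with brain. No filter gave 6, 6 and 7 past the unadjusted threshold, where 700, 700 and 1400 of all 14442 genes passed in either direction. Leaving out each library in turn gave 0 to 2 called against Blood_NMO, 0 to 2 against Blood_Normal and 1 to 2 against both, with 2 to 4, 3 to 6 and 3 to 6 past the unadjusted threshold. Between the blood groups 0 were called throughout. The 1 past the unadjusted threshold there (Ccl2) became 0 with limma-voom, only the groups compared, at least 10 counts in every library, or without Blood_Normal replicate 3, a range of 0 to 1 over the libraries left out. Over all genes tested, 25, 25 and 44 were called in the 3 comparisons with brain, and 336, 366 and 495 by DESeq2. The cause of these differences was not tested beyond the number of genes and libraries in each fit.

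Libraries of different groups with the same replicate number had deviations from their group means correlated at -0.0102 to 0.116, against -0.0957 to 0.0301 for different numbers, so the numbers were not taken to pair the pools. With the replicate block, 0, 0 and 1 ligands were called in the comparisons with brain (adjusted p of Ccl7 = 0.106 and 0.102, of Ccl2 against both = 0.0554), and 0 passed the unadjusted threshold between the blood groups. Under the block the difference of Ccl4 was 0.28 against Blood_NMO, 0.73 against Blood_Normal and 0.51 against both, and that of Ccl3 was 0.37 against Blood_Normal and 0.88 against both, opposite in sign to the values without it.

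Signs turned for Ccl3 and Ccl4 only, which were called under none of the alternatives. For Ccl3 against both blood groups (-0.06) the value was 0.10 with RLE factors, 0.10 with DESeq2, 0.15 with library sizes alone and 0.043 with at least 10 counts in every library, and against Blood_NMO it was -0.76 with limma-voom. Leaving out each library in turn, Ccl3 ranged from -0.44 to 0.68 against Blood_NMO, -1.08 to 0.12 against Blood_Normal and -0.76 to 0.28 against both. Ccl4 ranged from -1.40 to 0.32, -1.20 to 0.96 and -1.30 to 0.092 in these comparisons and from -0.89 to 1.73 between the blood groups. The log2 fold changes of Ccl2, Ccl6, Ccl7, Ccl9 and Ccl22 kept their sign under every alternative that tested them.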
